A study of Homo sapiens with 6 samples.

Results

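The clustered histone genes of SW872 cells were described, which are the genes for the core histones H2A, H2B, H3 and H4 and for the linker histone H1 that lie in arrays on a few chromosomes. They were chosen by name, as every row of the count table whose symbol starts with HIST1H, HIST2H, HIST3H or HIST4H, without the 13 rows named as pseudogenes by the ending PS. This left 76 of 57773 rows, with 6 for H1, 17 for H2A, 23 for H2B, 15 for H3 and 15 for H4. A few members kept by the rule, such as HIST2H2BC and HIST2H2BD, are annotated as pseudogenes as well. SW872 is an established human liposarcoma cell line. The Apatinib group held 3 cultures given 18 μM of the drug, an inhibitor of the VEGFR2 kinase, for 24 h. The control group held 3 cultures of the same line. Whether the controls were given the drug's solvent is not stated in the sources used here. The study describes the cultures as biological replicates, and all values come from this 1 line.

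Around each nucleosome, DNA is wrapped on a core of H2A, H2B, H3 and H4, and H1 binds where the DNA enters and leaves. Most of these genes are switched on as cells copy their DNA, and their mRNA then ends just after a short hairpin, the stem-loop, without a poly(A) tail. Some of the genes also make longer, polyadenylated mRNA that runs past the stem-loop, a form known from cells that are leaving the cell cycle or are differentiating. How much of each form a library holds depends on how RNA was selected. The study's methods speak of mRNA extraction, and the method of selection is not given in the sources used here.

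The stem-loop and the polyadenylation signal can both be read in the GENCODE 29 transcripts (GRCh38) of several members. They are shown for 3 of the 4 genes that lead the results and for HIST3H2A, which did not pass the test. In the lines below, which hold at most 30 bases each, capitals mark the 16 bases of the stem-loop or the 6 bases of the signal. The given positions are those of the capitals in GRCh38, while the counts were made on hg19.
HIST1H2AC, stem-loop, chr6:26124669-26124684 on the plus strand: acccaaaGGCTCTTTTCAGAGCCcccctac
HIST1H2AC, signal, chr6:26139088-26139093 on the plus strand: ctggcatgaggtAATAAAaggtaatgcaaa
HIST1H2BD, stem-loop, chr6:26158587-26158602 on the plus strand: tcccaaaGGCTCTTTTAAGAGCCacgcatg
HIST1H2BD, signal, chr6:26171325-26171330 on the plus strand: aaagttataattAATAAAatctgcggagaa
HIST2H2BE, stem-loop, chr1:149886188-149886203 on the minus strand: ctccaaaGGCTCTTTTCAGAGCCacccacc
HIST2H2BE, signal, chr1:149884477-149884482 on the minus strand: gctattgttattAATAAAgttaccaattaa
HIST3H2A, stem-loop, chr1:228457369-228457384 on the minus strand: acataaaGGCTCTTTTCAGAGCCacctact
HIST3H2A, signal, chr1:228456997-228457002 on the minus strand: gatttatctgatATTAAAagtatttatgat
The stem-loop was found in 33 of the 75 members that GENCODE 29 holds, and in 0.0634% of its 206694 transcripts. It was followed by 1128 more bases in a transcript of HIST1H2AC, by 1729 in HIST2H2BE, by 390 in HIST3H2A and by 39 in HIST1H2BD. That transcript of HIST1H2AC is not annotated as protein coding, and 1114 bases follow the stem-loop in a protein-coding transcript of the gene. The stem-loop of HIST1H2BD is in its transcript of 496 bases, and the signal shown for it is in another, of 789 bases, that holds no stem-loop. The only annotated transcript of HIST1H1C is its coding sequence of 642 bases, which ends at the stop codon, so the table cannot show an end for it. A match to these letters describes the annotated transcript only, and does not say which form was counted.

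Each of the 6 libraries held between 17043314 and 22067558 counts. Control replicates 1 and 2 were far closer to each other (mean chi-square per gene 2.27) than any other pair within a group (18.2 to 44.5), although they differed by more than sampling noise. Apatinib replicate 2 stood farthest from its group. Values without these libraries are given below where they moved the most. Of 8 fat cell markers, 3 were tested, ADIPOQ, FABP4 and CEBPA were at 0 in every library, and LPL was an upregulated DEG (0.84 on the log2 scale). All 8 mesenchymal markers were tested, and COL3A1 (1.18) and S100A6 (1.03) were upregulated DEGs. Of 6 epithelial markers 2 were tested, and ESRP1, at no more than 1.86 CPM in any library, was an upregulated DEG (1.47). Of 5 leukocyte markers only CD14 was tested (-0.53, FDR 0.156), and PTPRC was at 0. Of these 4 marker DEGs, S100A6 alone kept an FDR under 0.05 whichever library was left out. The part of these markers in the histone values was not tested.

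Apatinib-treated cells held more mRNA of 4 histone genes, the linker histone gene HIST1H1C, the H2A gene HIST1H2AC and the H2B genes HIST1H2BD and HIST2H2BE, each by between 0.81 and 1.16 on the log2 scale. Only 28 of the 76 members had enough counts to be tested, with 2 for H1, 6 for H2A, 11 for H2B, 4 for H3 and 5 for H4. Of those 28, 4 were upregulated differentially expressed genes (DEGs), against 5.97% of the 16290 genes tested, and 0 were downregulated, against 5.48%. To be a DEG, a gene had to differ by over 0.5 on the log2 scale in either direction with an FDR below 0.05 (edgeR, quasi-likelihood test). At an unadjusted p under 0.05, 11 members had more mRNA and 0 had less in edgeR, against 30.6% of all genes in either direction. Without Apatinib replicate 2 these were 6 members with more and 1 with less. DESeq2 called the same 4 members higher and 0 lower. The calls were lost where the close pair of control libraries was not kept whole, and the cause was not tested. Without control replicate 1, edgeR called 0 of the members (8 were higher at an unadjusted p under 0.05). With control replicates 1 and 2 summed to 1 sample it called 0 (9 were higher at an unadjusted p under 0.05). Without control replicate 2 it called only HIST2H2BE. The log2 fold change was above 0 in 21 members and below 0 in 7, with a median of 0.43, whereas it was above 0 in 50.3% of all genes tested, with a median of 0.00. Without Apatinib replicate 2 it was above 0 in 18 members and below 0 in 10, with a median of 0.17. In 8 of the 28 all Apatinib libraries lay above all control libraries, against 17.5% of all genes, and in 0 all lay below, against 15.7%. In bulk RNA, more mRNA in each cell and a larger share of cells that carry it cannot be told apart.

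**Figure D1:**
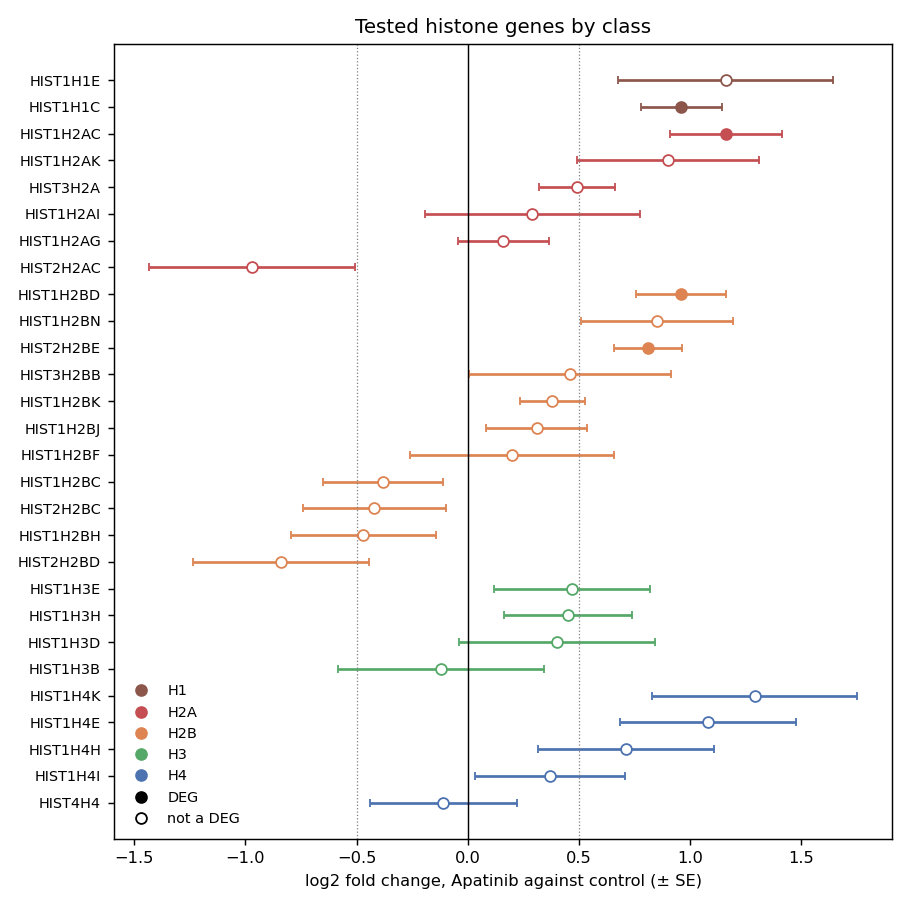
Log2 fold change of each of the 28 tested histone genes, Apatinib against control, on the horizontal axis (edgeR, points with bars of ± SE), with colours for the histone class, filled points for DEGs and dotted lines at a log2 fold change of 0.5 in either direction. The 4 filled points lie between 0.81 and 1.16, and 7 open points lie below 0.

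HIST1H1C, whose product is the H1.2 linker histone, had 28.0, 39.2 and 23.8 CPM (counts relative to the library total, scaled by TMM) in the Apatinib libraries, in the order of their replicate numbers, and 15.1, 14.9 and 16.8 CPM in the controls. The groups did not overlap, and the lowest Apatinib library lay above the highest control library. The mean was 30.3 ± 8.0 CPM (SD, n = 3) with Apatinib and 15.6 ± 1.04 CPM (SD, n = 3) in the control group, a log2 fold change of 0.96 ± 0.18 (SE; edgeR, FDR 0.0111). The other tested H1 gene, HIST1H1E, encodes H1.4 and was far less abundant. It was counted 21, 57 and 18 times in the Apatinib libraries, against 17, 19 and 10 times in the controls. Only Apatinib replicate 2 stood clearly above the controls once the libraries were scaled, and the log2 fold change of 1.16 ± 0.48 (SE; edgeR, FDR 0.131) became 0.47 without it. HIST1H1D showed the same library apart, with 4, 23 and 1 counts against 5, 3 and 3, and was too low to be tested.

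HIST1H2AC, an H2A gene of the large array on chromosome 6, had 33.4, 65.6 and 30.2 CPM with Apatinib and 19.9, 20.4 and 17.6 CPM in the control group. The groups were apart, and Apatinib replicate 2 held about as many counts after scaling as the other Apatinib libraries together. The control mean was 19.3 ± 1.48 CPM (SD, n = 3) and the Apatinib mean 43.1 ± 19.6 CPM (SD, n = 3), a log2 fold change of 1.16 ± 0.25 (SE; edgeR, FDR 0.0168). Without Apatinib replicate 2 it was 0.73, still a DEG. HIST3H2A, a further H2A gene that lies in a small array on chromosome 1, had 9.77, 10.7 and 8.76 CPM against 7.39, 6.10 and 7.33 CPM. Its groups did not overlap either, but its log2 fold change of 0.49 ± 0.17 (SE; edgeR, FDR 0.0794) did not pass the test. HIST1H2AG was at 6.46, 9.99 and 7.16 CPM against 6.23, 7.70 and 7.15 CPM, and its groups overlapped (log2 fold change 0.16, FDR 0.628).

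Among the H2B genes, HIST2H2BE had 25.8, 30.5 and 24.8 CPM with Apatinib and 13.0, 16.5 and 16.7 CPM in the control group. All 3 Apatinib libraries lay above the controls, and Apatinib replicate 2 was less far from the others here. The log2 fold change was 0.81 ± 0.15 (SE; edgeR, FDR 0.0105). HIST1H2BD, an H2B gene of the same array as HIST1H2AC, had 12.4, 16.3 and 9.85 CPM against 7.33, 6.32 and 6.18 CPM. It rose by 0.96 ± 0.20 (SE; edgeR, FDR 0.0150) on the log2 scale, again without overlap. HIST1H2BK, the H2B gene with the most counts, was at 48.2, 37.4 and 39.4 CPM against 31.8, 28.4 and 35.5 CPM. Its groups stood apart by little, and its log2 fold change of 0.38 ± 0.15 (SE; edgeR, FDR 0.0992) did not pass. Some of its sequence also lies in other genes, since 22.6% of its runs of 50 bases occur in another gene's transcript. The share was 8.11% in HIST2H2BE, 5.36% in HIST1H2BD, 0.421% in HIST1H2AC and 0% in HIST1H1C. These shares are over unlike lengths. The annotated transcript of HIST1H2BK is its coding sequence of 381 bases alone, and that of HIST2H2BE holds 2194 bases.

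**Figure D2:**
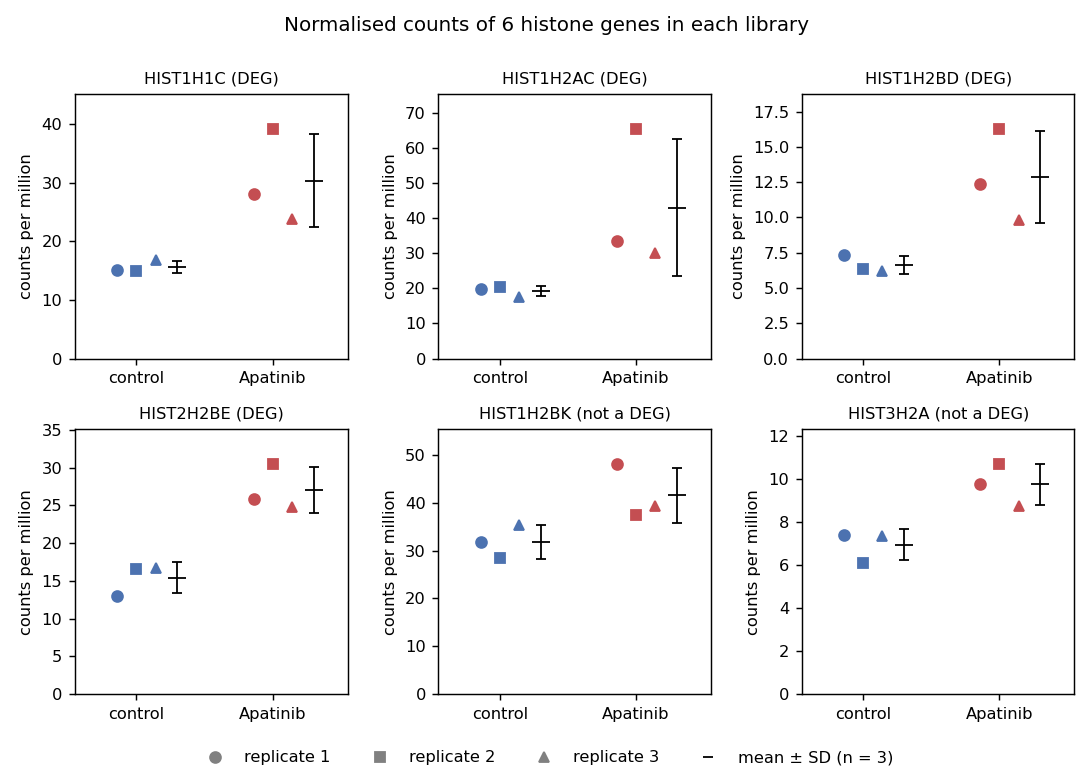
CPM of 6 histone genes (vertical axes, starting at 0) in each control and Apatinib library, with a marker for each replicate number and a bar for the mean ± SD (n = 3). In all 6 panels the Apatinib libraries lie above the controls, by little in HIST1H2BK (37.4 against 35.5 CPM for the nearest libraries) and HIST3H2A (8.76 against 7.39 CPM), and Apatinib replicate 2 is the highest in every panel but that of HIST1H2BK.

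The H3 and H4 genes, which encode the tetramer at the centre of the nucleosome, had few counts and no DEG. HIST1H3H, the most abundant H3 gene by counts, had 47, 46 and 27 counts in the Apatinib libraries, against 27, 34 and 35 in the controls (log2 fold change 0.45, FDR 0.318). HIST1H3D and HIST1H3E were at log2 fold changes of 0.40 and 0.47, and their groups overlapped as well. Leaving out Apatinib replicate 2 brought HIST1H3D to 0.16, and leaving out Apatinib replicate 3 to 0.78. HIST4H4, the lone histone gene of this kind on chromosome 12, had 26, 84 and 68 counts against 66, 69 and 74. Apatinib replicate 1 was low and the other libraries were close to each other, and the log2 fold change was -0.11 ± 0.33 (SE; edgeR, FDR 0.856). HIST1H4H had 38, 125 and 45 counts against 39, 52 and 47. Here Apatinib replicate 2 stood alone, and the log2 fold change of 0.71 (edgeR, FDR 0.250) was -0.01 without it. HIST1H4I, with 15 to 27 counts with Apatinib and 15 to 20 in the control group, was at 0.37 (FDR 0.488), and at 0.17 without Apatinib replicate 2.

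A few members were looked at after their values were seen. HIST1H4K and HIST1H4E, HIST1H4K having the largest log2 fold change of the tested members, were at 1.29 (FDR 0.0845) and 1.08 (FDR 0.0911), both without overlap but at no more than 27 counts in any library. All 50-base runs of HIST1H4K occur in another gene, and in limma on log2(FPKM + 0.1) it was at 0.14 (FDR 0.764). HIST2H2AC was the lowest of the tested members, at -0.97 ± 0.46 (SE; edgeR, FDR 0.184), with 7, 22 and 8 counts against 31, 28 and 19. Leaving out Apatinib replicate 1 gave -0.69 for it, and leaving out Apatinib replicate 2 gave -1.65 (FDR 0.0540). HIST2H2BD, a pseudogene, followed at -0.84 (FDR 0.176), and neither passed the test. HIST1H2BN was at 0.85 (FDR 0.120), with 38, 103 and 51 counts against 30, 43 and 43, and at 0.35 without Apatinib replicate 2. Its exons in GENCODE 29 overlap those of HIST1H2AK on the opposite strand and of HIST1H2AL on the same strand. Whether counting used the strand is not given in the sources used here. Reads that lie where the exons of HIST1H2AK and HIST1H2BN overlap may therefore not have been told apart. The exons of the 4 DEGs overlap no other gene there.

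The members just named are few, and most of the family gave little or no signal in the counts. In all, 19 members had 0 counts in every library and 30 had no more than 3 counts in any library. Some of these, such as HIST2H2AA4, did have FPKM values. The 4 DEGs held 48.7% of the 18936 counts of the family, and the 7 most abundant members held 79.0%. Levels were compared between genes per length. By FPKM, the fragments scaled to transcript length and library size, in the control group, HIST1H2BK was first at 27.6 ± 3.12 (SD, n = 3) and HIST1H1C was next at 14.5 ± 0.843 (SD, n = 3). HIST3H2A at 8.61 ± 1.06 FPKM (SD, n = 3) and HIST1H2AC at 8.22 ± 0.929 FPKM (SD, n = 3) did not differ beyond their spread. Nor did HIST1H2BD at 5.68 ± 0.837 FPKM (SD, n = 3) and the next member, HIST2H2AA4, at 5.31 ± 0.581 FPKM (SD, n = 3). With Apatinib, HIST1H2BK was at 35.7 ± 4.27 FPKM (SD, n = 3), and HIST1H1C was at 28.2 ± 8.43 FPKM (SD, n = 3), not apart from it beyond their spread.

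Summed over each class, the CPM of the linker histone and of H2A and H2B were higher in every Apatinib library than in any control, whereas those of H3 and H4 overlapped. The unscaled counts of H2B overlapped too, at 1716, 1829 and 1556 against 1145, 1214 and 1601. The sums are descriptions and were not tested. For H1 the sum was 29.8, 43.8 and 25.1 CPM with Apatinib and 16.7, 16.4 and 17.9 CPM in the control group, a ratio of the means of 1.93. HIST1H1C made up 92.0% of it. For H2A the sums were 51.7, 91.0 and 48.6 CPM against 36.7, 38.0 and 34.6 CPM, a ratio of 1.75. Here 62.3% came from HIST1H2AC, and without that gene the ratio was 1.21. For H2B they were 99.8, 103 and 89.1 CPM against 66.1, 66.8 and 73.3 CPM, a ratio of 1.42, and 1.51 without its most abundant gene, HIST1H2BK. The sums of H3, 7.74, 7.23 and 4.75 CPM against 4.96, 6.16 and 4.81 CPM (ratio 1.24), were the smallest on average. Those of H4 were 7.04, 16.9 and 10.4 CPM against 9.35, 8.36 and 8.02 CPM (ratio 1.33), with Apatinib replicate 1 below all controls and Apatinib replicate 2 far above them. Apatinib replicate 2 was the highest of the 6 libraries for 18 of the 28 tested members. Leaving it out left log2 ratios of the sums of 0.69 for H1, 0.46 for H2A, 0.46 for H2B, 0.23 for H3 and 0.03 for H4, from 0.95, 0.81, 0.50, 0.31 and 0.42.

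**Figure D3:**
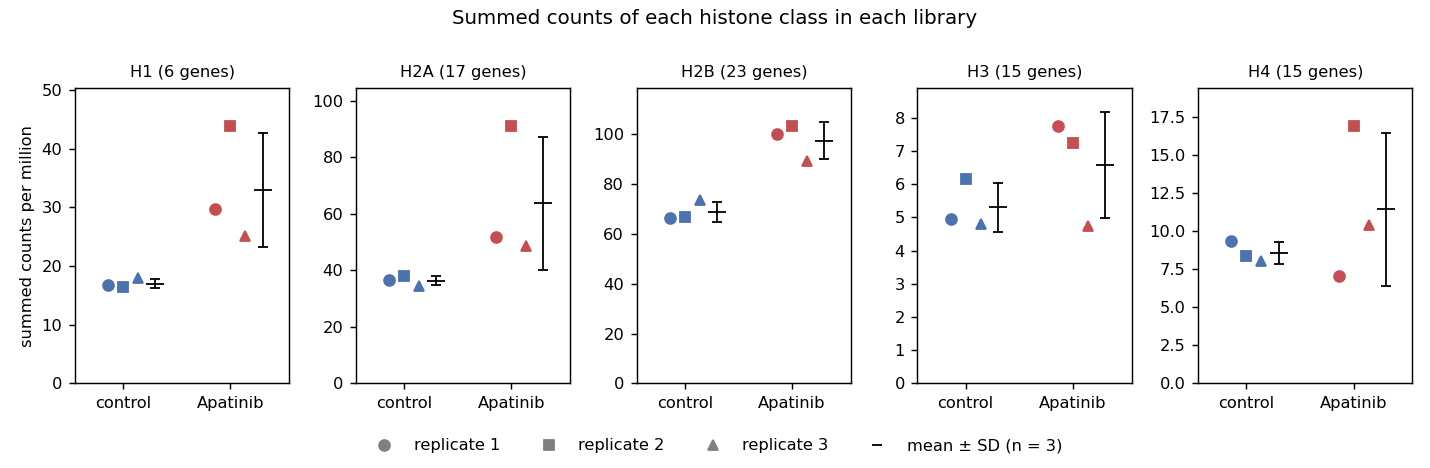
Summed CPM of all members of each histone class (vertical axes, starting at 0) in each control and Apatinib library, with a marker for each replicate number and a bar for the mean ± SD (n = 3). The groups stand apart for H1, H2A and H2B, with ratios of 1.93, 1.75 and 1.42, and overlap for H3 and H4.

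Where the 4 calls were lost, the fold changes moved little, and the log2 fold change of HIST2H2BE was 0.70 without control replicate 1. The number of DEGs among all genes fell as well, from 1866 to 275 without control replicate 1, to 300 without control replicate 2 and to 292 with both summed. Leaving out any other library kept all 4 as DEGs. The FDR rose to 0.0595 in HIST1H1C, 0.0683 in HIST1H2AC and 0.0708 in HIST2H2BE without control replicate 1, and to 0.0780 in HIST1H2BD without control replicate 2. Every fit with a library left out gave the 4 genes a log2 fold change between 0.70 and 1.36.

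**Figure D4:**
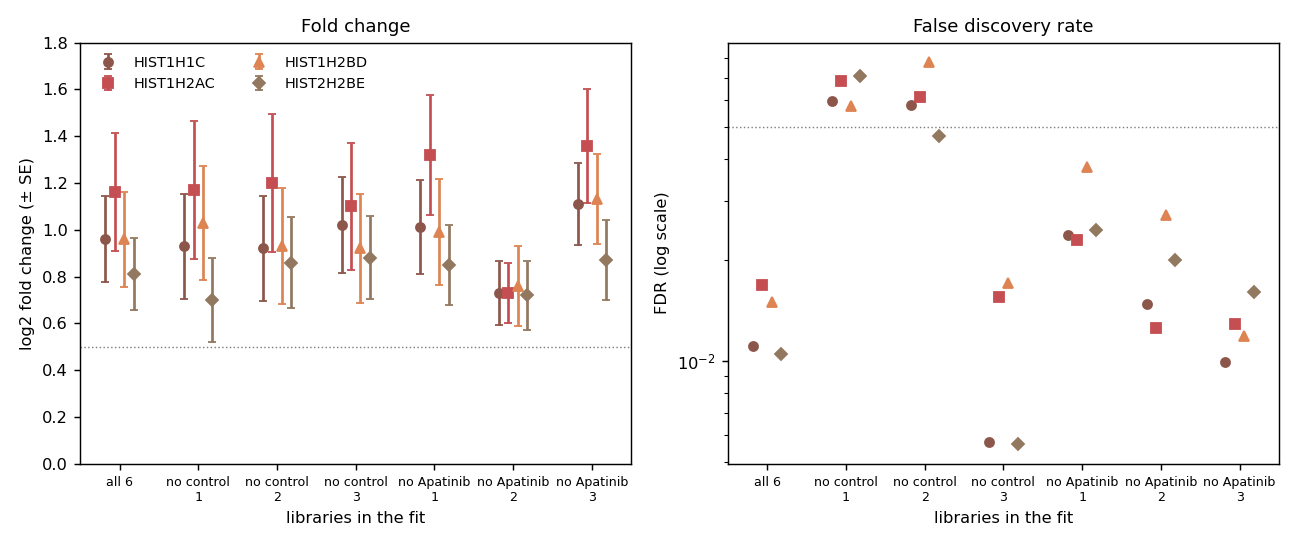
Log2 fold change ± SE (left) and FDR on a log scale (right) of the 4 histone DEGs in edgeR fits of all 6 libraries and with each library left out (horizontal axes), with dotted lines at 0.5 and at an FDR of 0.05. The fold changes stay between 0.70 and 1.36, and only the fits without control replicate 1 or 2 have points above an FDR of 0.05.

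Some members are copies of one another and were nearly at 0 in the counts. HIST2H2AA3 and HIST2H2AA4, which encode the same H2A protein, had together at most 1 count in any library, whereas the FPKM values of the same libraries summed to 11, 15.5 and 13.1 in the Apatinib libraries, against 8.49, 8.34 and 10.1 in the controls. The groups did not overlap, and the ratio of the means was 1.47. The H4 copies HIST2H4A and HIST2H4B had 1 to 6 counts together, against FPKM sums of 12.9, 29.5 and 12.1 and of 10.9, 9.04 and 9.33. Again the Apatinib libraries were higher, and Apatinib replicate 2 led them. With these copies counted, the FPKM sums of the H4 class were 20.3, 42.8 and 20.8 against 19.4, 15.9 and 16.3, apart by little, where the CPM sums had overlapped. In GENCODE 29, 100% of the 50-base runs of HIST2H2AA4 and 97.5% of those of HIST2H4A occur in another gene. In a fit of limma on log2(FPKM + 1), which took in genes averaging over 0.5 FPKM and was added after seeing the data, HIST2H2AA4 was at 0.52 ± 0.14 (SE; limma, FDR 0.0620) and HIST2H4B at 0.70 ± 0.27 (SE; limma, FDR 0.140), on that scale. Neither was called, and in that fit 3.51% of all genes were called higher and 5.03% in either direction. The H3 copies HIST2H3A and HIST2H3C overlapped between the groups, at FPKM sums of 0.748 to 2.76 with Apatinib and 0.899 to 1.68 in the control group. The sums of HIST1H4J and HIST1H4K overlapped too, with a mean of 3.51 FPKM in each group, although HIST1H4K stood higher in the counts. The values of copies are uncertain, because reads that fit several genes may have been split between them or left out.

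Divergent pairs of H2A and H2B genes, which face away from each other on opposite strands, share the DNA between their starts. By the starts in GENCODE 29, 4 such pairs had both members tested. HIST1H2AC and HIST1H2BC start 219 bases apart in GENCODE 29. HIST1H2AC rose by 1.16 on the log2 scale, while HIST1H2BC was at -0.38 (edgeR, FDR 0.368), with 39, 26 and 44 counts against 40, 49 and 68. Without Apatinib replicate 2 they were at 0.73 and -0.18. The ratio of their counts was 14.7, 44.7 and 12 in the Apatinib libraries, against 8.62, 7.57 and 5.66 in the controls, without overlap. HIST2H2BE and HIST2H2AC start 323 bases apart, and their log2 fold changes were 0.81 and -0.97 (0.72 and -1.65 without Apatinib replicate 2). For each count of HIST2H2BE there were 0.0158, 0.0407 and 0.0184 of HIST2H2AC with Apatinib, and 0.138, 0.0933 and 0.0522 in the control group. In both pairs the members thus stood apart in every Apatinib library more than in any control library, though neither HIST1H2BC nor HIST2H2AC passed the test on its own. Since HIST1H2AC and HIST2H2BE are DEGs whose groups do not overlap, these ratios are no separate evidence on their partners. In the other pairs, HIST3H2A and HIST3H2BB were at 0.49 and 0.46 (0.42 and 0.03 without Apatinib replicate 2), and HIST1H2AG and HIST1H2BJ were at 0.16 and 0.31 (-0.04 and 0.18 without it). None of these genes was a DEG. By their RefSeq starts HIST1H2AK and HIST1H2BN also face away from each other, at 0.90 and 0.85 (0.56 and 0.35 without Apatinib replicate 2), but their exons overlap in GENCODE 29.

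The promoters of the 4 DEGs are shown because they let the letters before each start be set beside its values. Each line holds 250 bases before and 50 after the RefSeq start of the gene (GRCh38.p14), read on the gene's own strand. Capitals mark, on either strand, the letters CCAAT of the CCAAT box, the letters TATAAA of the TATA box and the octamer ATTTGCAT, where overlapping matches run together. The window of HIST1H2AC covers most of that of HIST1H2BC.
HIST1H1C, chr6:26056421-26056720 on the minus strand: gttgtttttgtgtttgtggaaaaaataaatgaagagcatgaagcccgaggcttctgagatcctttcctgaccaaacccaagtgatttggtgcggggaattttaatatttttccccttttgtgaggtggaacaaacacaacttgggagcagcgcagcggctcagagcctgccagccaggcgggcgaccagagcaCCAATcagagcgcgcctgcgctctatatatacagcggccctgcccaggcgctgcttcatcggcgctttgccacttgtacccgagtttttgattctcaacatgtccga
HIST1H2AC, chr6:26123922-26124221 on the plus strand: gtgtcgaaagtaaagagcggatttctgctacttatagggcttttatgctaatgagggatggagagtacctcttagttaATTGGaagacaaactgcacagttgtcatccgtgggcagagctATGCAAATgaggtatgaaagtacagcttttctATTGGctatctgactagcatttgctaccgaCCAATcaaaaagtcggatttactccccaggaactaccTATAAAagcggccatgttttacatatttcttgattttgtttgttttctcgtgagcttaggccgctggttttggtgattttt
HIST1H2BD, chr6:26157871-26158170 on the plus strand: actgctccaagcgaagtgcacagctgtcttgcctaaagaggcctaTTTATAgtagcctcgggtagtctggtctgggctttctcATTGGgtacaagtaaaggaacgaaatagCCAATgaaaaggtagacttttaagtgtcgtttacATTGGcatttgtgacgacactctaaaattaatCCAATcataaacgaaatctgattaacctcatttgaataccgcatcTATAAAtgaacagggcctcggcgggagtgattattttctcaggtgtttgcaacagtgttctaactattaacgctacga
HIST2H2BE, chr1:149886633-149886932 on the minus strand: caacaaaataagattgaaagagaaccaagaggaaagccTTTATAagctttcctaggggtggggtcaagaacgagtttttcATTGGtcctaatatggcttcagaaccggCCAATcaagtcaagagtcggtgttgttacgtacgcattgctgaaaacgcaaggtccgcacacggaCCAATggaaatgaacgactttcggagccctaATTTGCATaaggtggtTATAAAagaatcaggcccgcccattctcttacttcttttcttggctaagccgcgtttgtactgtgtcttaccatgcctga
RefSeq promoters were found for 64 members. CCAAT was in 54 of them, against 35.7% of 27305 promoters of all genes, and TATAAA was in 42, against 12%. The octamer, which the factor OCT1 (POU2F1) is known to bind in H2B promoters, was in 26, against 1.8% of all promoters. It was in 11 of 15 H2A and 14 of 18 H2B promoters, in 1 of 12 for H3, and in 0 of 6 for H1 and 0 of 13 for H4. That H3 window, of HIST1H3D, is the same as the window of the H2A gene HIST1H2AD. Of the DEGs, HIST1H2AC and HIST2H2BE hold the octamer, and HIST1H1C and HIST1H2BD do not. CCAAT was in every H1, H2A, H2B and H3 promoter matched but in 3 of 13 for H4. The windows of divergent genes share bases, so some matches were counted for both an H2A and an H2B gene. A match is a run of letters, not evidence that a factor binds there.

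The annotated ends of the transcripts were compared with the calls. Of the tested members, 16 have a stem-loop with 100 or more bases after it, of which 2 were upregulated DEGs (median log2 fold change 0.41), against 5.97% of all genes tested. A further 10 have no stem-loop in their annotated transcript, of which 1 was a DEG (median 0.44), but for 7 of these 10 the annotation holds the coding sequence alone and cannot show a stem-loop. Of the remaining 2 members, with fewer bases after the stem-loop in the transcript that holds it, HIST1H2BD, which has the longer transcript named above as well, was a DEG and HIST1H2AI, at 0.29, was not. The list of 8 clustered histone genes that are known for polyadenylated mRNA held all 4 DEGs, and 7 of the 8 had a log2 fold change above 0, with a median of 0.65. In 6 of the 8 all Apatinib libraries lay above the controls, against 17.5% of all genes. Their summed level lay between 144 and 206 CPM with Apatinib and between 98 and 107 CPM in the control group. The list was set with earlier results of these data known, so its count is no independent evidence of a direction.

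Genes that act on histones were examined beside them, from lists that were set with earlier results of these data known. Their counts are read beside the 5.97% of all genes called higher, the 5.48% called lower and the 30.6% with an unadjusted p under 0.05. Of the 11 tested replacement variants, whose mRNA is made outside S phase as well, 1 was an upregulated DEG, near the share over all genes, and 0 were downregulated, with a median log2 fold change of -0.23. The DEG was H1F0, the linker histone of resting cells, at 389, 635 and 334 CPM against 288, 280 and 282 CPM (0.68 ± 0.20 SE; edgeR, FDR 0.0479). Its groups did not overlap, and it was at an FDR of 0.157 without control replicate 2. The H2A variants H2AFV and H2AFY, at -0.50 (FDR 0.0298) and -0.41 (FDR 0.0381), and the centromeric H3 gene CENPA, at -0.44 (FDR 0.0419), passed the FDR but not the limit on the fold change. DESeq2 called 1 variant higher and 1 lower, and in edgeR 3 were higher and 4 lower at an unadjusted p under 0.05.

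Of the 22 genes for the processing and decay of histone mRNA, 5 were downregulated DEGs and 0 were upregulated, with a median of -0.24. CASP8AP2 (FLASH), which helps cut the mRNA behind the stem-loop, fell by 1.31 on the log2 scale (edgeR, FDR 0.0128). Its control replicate 3, at 27.4 CPM, was nearer to the highest Apatinib library (23.5 CPM) than to the other controls (46.8 and 51.6 CPM). The exonuclease XRN1 fell by 0.72 (FDR 0.0243) and ERI1, which trims the stem-loop end, by 0.56 (FDR 0.0255). XRN1 in control replicate 3, at 59.5 CPM, was likewise near the highest Apatinib library (54.9 CPM). The Sm proteins SNRPG and SNRPE fell by 0.56 (FDR 0.0354) and 0.54 (FDR 0.0460). SLBP, which binds the stem-loop, was at 75.6, 56.8 and 77.1 CPM against 96.9, 97.0 and 94.7 CPM, lower in every Apatinib library. Its log2 fold change of -0.46 ± 0.14 (SE; edgeR, FDR 0.0472) missed the limit on the fold change.

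Of the 15 genes for transcription of histone genes, 3 were downregulated DEGs and 0 were upregulated, with a median of -0.20. NPAT, the coactivator at histone gene arrays, was at 20.3, 17.4 and 27.2 CPM against 62.0, 57.3 and 30.6 CPM. The groups did not overlap, with control replicate 3 near the Apatinib libraries, and the log2 fold change was -1.21 ± 0.25 (SE; edgeR, FDR 0.0139). CCNE2, a cyclin whose kinase acts on NPAT, fell by 1.72 (FDR 0.00776), and ATM, the neighbour of NPAT on the genome, by 0.73 (FDR 0.0221). In control replicate 3 ATM, too, was near the highest Apatinib library (151 against 142 CPM). Among the 21 tested chaperones and assembly factors, 5 were downregulated DEGs and 0 were upregulated, with a median of -0.36. They were ANP32E (-1.0), which removes H2A.Z, HAT1 (-1.0), which acetylates new H4, MMS22L (-1.0), ATRX (-0.90) and the H3 carrier NASP (-0.70). ATRX in control replicate 3, at 102 CPM, was close to the highest Apatinib library at 99.6 CPM. CCNE2 and MMS22L kept an FDR of at most 0.0405 and 0.0472 whichever library was left out. Every other DEG of these lists lost its call without control replicate 1 or without control replicate 2.

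The S phase genes, a list of 43 that are high while DNA is copied, were mostly lower with Apatinib. The log2 fold change was below 0 in 42 and above 0 in 1. Of the 43, 26 were downregulated DEGs, against 5.48% of all genes tested, and 0 were upregulated, against 5.97%. The median log2 fold change was -0.70. Only 6 of the 26 (ATAD2, CCNE2, CENPU, CLSPN, E2F8 and UHRF1) kept an FDR under 0.05 whichever library was left out, and the other 20 lost it without control replicate 1 or without control replicate 2. Among those were CASP8AP2, NASP, BLM, CDC6, CDC45, CDCA7, DSCC1, DTL, EXO1, FEN1, GINS2, GMNN, HELLS, MCM4, POLA1, RAD51AP1, RRM1, RRM2 and USP1, at log2 fold changes between -1.31 in CASP8AP2 and -0.51 in CDC6. Their summed level lay between 2039 and 3095 CPM with Apatinib and between 4240 and 4356 CPM in the control group. CLSPN (-1.31), E2F8 (-1.06) and CENPU (-1.13) had the smallest p values. In the lists of processing and decay, transcription, chaperones and S phase genes, DESeq2 also called 0 genes higher. At an unadjusted p under 0.05 in edgeR, 2 genes were higher on the first of them, LSM10 and MIF4GD, and 0 on the others. The part of these changes in the histone values was not tested.

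**Figure D5:**
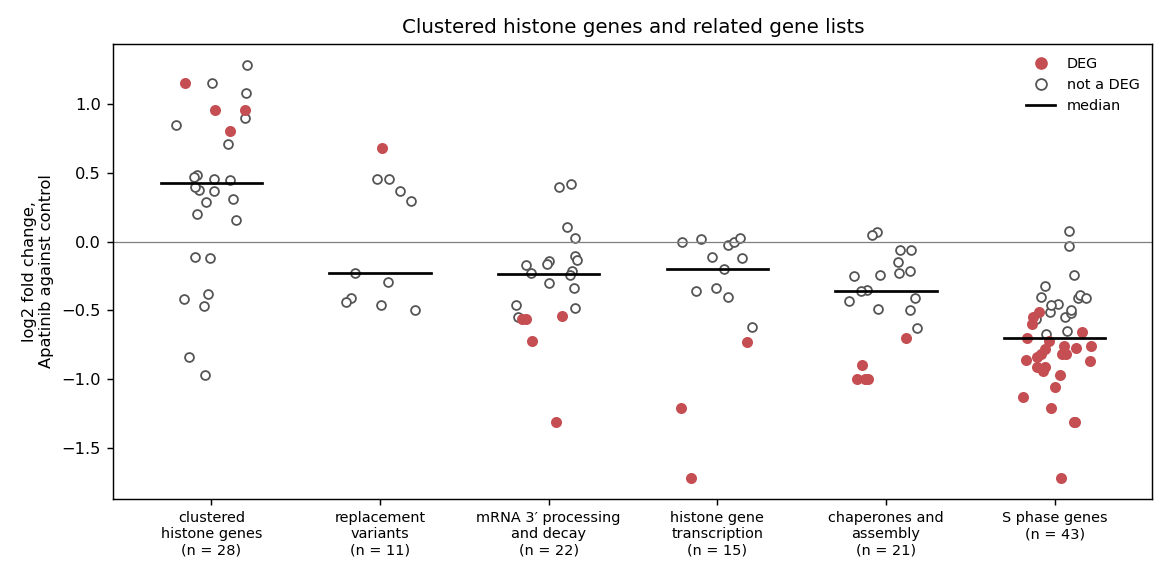
Log2 fold change, Apatinib against control (vertical axis; edgeR), of the tested genes of each list (points, spread sideways at random; filled where the gene is a DEG), with a line at the median. The clustered histone genes have a median of 0.43 with 4 DEGs above 0, and the S phase genes a median of -0.70 with 26 DEGs below 0. The S phase list shares CCNE2 with the transcription list, SLBP and CASP8AP2 with the processing list and NASP and CHAF1B with the chaperone list, so the DEGs CCNE2, CASP8AP2 and NASP are drawn and counted on both.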

How the data were processed

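RNA of 3 Apatinib-treated and 3 control cultures of SW872 was sequenced, and groups were taken from the sample labels. The authors deposited a table of counts, whole numbers per gene that were not normalized, and the FPKM of every gene in each library, which scales its fragments by length and depth. The submitters' processing notes name CASAVA, STAR 2.7.1a and hg19, while the counting and FPKM programs, the annotation, strand and RNA selection are not given in the sources used here. Left out was 1 column, headed as a control in the FPKM file of the first Apatinib library.

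Counts were fitted with edgeR 4.0.16 in R 4.3.3 (filterByExpr, TMM factors 0.952 to 1.03, quasi-likelihood F test, group as the only term). The FDR is a Benjamini-Hochberg adjustment over all 16290 genes tested. A DEG had an FDR below 0.05 and differed by over 0.5 on the log2 scale in either direction. The fits were tested on simulated data. The total counts, 17043314 to 22067558 a library, limit what can be seen in members with few counts. Sequences came from GENCODE 29 transcripts and RefSeq promoters, matched by identifier or symbol for 75 and 64 of the 76 members. No reference of the hg19 build was used here, so positions are those of GRCh38.

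Named were every member called, the 3 tested members of each class with the highest mean CPM, and on other lists the called genes and up to 3 with the smallest p value. Not every called gene of the lists is reported here. S phase genes came from Seurat 5.3.0. The members, lists and tests were chosen with earlier results of these data known. Alternatives were DESeq2 1.42.0, its size factors in edgeR, library totals without TMM, no filter, at least 10 counts in every sample, no limit on the fold change, log2 FPKM values with 1 or with 0.1 added in limma 3.58.1, a replicate block, control replicates 1 and 2 summed, and each library left out. A limma fit of genes with a mean FPKM above 0.5 was added after seeing the data.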

Additional observations from a re-analysis of the deposited data

How the results depend on the processing

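The direction of the 4 calls was kept under every alternative run. The number of members called higher was 4 with DESeq2, with its size factors, with library totals, with at least 10 counts in every sample and with no limit on the fold change, 3 in each FPKM fit (HIST1H2AC was at an FDR of 0.0515 to 0.0597 there), and 6 with no filter on low counts, which added HIST1H1E and HIST1H2BN. It was 0 with control replicates 1 and 2 summed, and 0 to 4 with a library left out. No fit called a member lower. DEGs among all genes numbered 1866, and 292 with controls 1 and 2 summed, 977 with log2(FPKM + 0.1), 858 with log2(FPKM + 1) and 796 with a mean FPKM above 0.5. They numbered 275 to 2594 with a library left out. DEGs on the other lists without the S phase list numbered 14 in all. They numbered 2 with controls 1 and 2 summed, 6 in each of the 3 FPKM fits, and 2 to 19 with a library left out. The cause was not tested. The replicate numbers did not pair the libraries (correlations of deviations -0.259, 0.0808 and -0.220), and with a replicate block the same 4 members were called, of 2215 DEGs. The log2 ratio of the H2A sum was 0.27 without HIST1H2AC, and that of the H2B sum was 0.34 in FPKM. Log2 fold changes turned sign in HIST1H2AG (-0.04 to 0.29 over the libraries left out) and HIST1H4H (-0.01) without Apatinib replicate 2, and in HIST4H4 without Apatinib replicate 1 (-0.42 to 0.24 over the libraries left out) and in FPKM (0.23 with 1 added, 0.28 with 0.1 added). Of the other members, HIST1H2BF (-0.15 without Apatinib replicate 2), HIST1H2AI (-0.10 without control replicate 3) and HIST1H3B (0.06 without Apatinib replicate 1 and 0.31 without control replicate 2) turned sign as well. HIST1H2AI did so in FPKM too (-0.04 with 1 added, -0.01 with 0.1 added). Of the 26 S phase DEGs, 20 lost the call without control replicate 1 or 2.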
